A study of Homo sapiens with 18 samples.

Results

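RAD21-depleted U2OS-MycER cells that received 4-hydroxytamoxifen (OHT) were compared with RAD21-depleted cells that received ethanol, 24 h after transfection. The comparison uses 4 of the 18 RNA-seq libraries of the series, the 2 of siRAD21 cells (mock-treated with ethanol) and the 2 of siRAD21 OHT cells. The genes were chosen by level only: those with a mean of at least 1 eRPKM over all 18 libraries, which were 14993 of the 23399 genes in the deposited table. An eRPKM is the number of reads on the exons of a gene per kilobase, scaled to the mapped reads of the library. U2OS is a human osteosarcoma cell line. All cells of the series carried MycER, a fusion of Myc with the estrogen receptor brought in by a pbabe-puro retrovirus. The siRAD21 cells were transfected with a pool of siRNAs against RAD21, and the siCtrl cells used beside them with an siRNA against Renilla luciferase. OHT (400 nM) or ethanol was added at the time of transfection, so that depletion of RAD21 and activation of MycER ran for the same time. The methods of the study describe the replicates as biological.

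Myc is a transcription factor that dimerizes with MAX, binds DNA at E-box sequences, and is best known for raising genes of ribosome production, nucleotide synthesis and cell growth. MycER is held inactive in the cytoplasm until the cells receive OHT. RAD21 is the kleisin subunit of cohesin, the ring that holds sister chromatids together and forms chromatin loops, and both its roles bear on DNA replication and on transcription. The question of the comparison is which genes answer to MycER in cells that have lost most of their RAD21 mRNA, and how far the answer resembles the one in cells with RAD21. OHT was not given here to cells without MycER, so effects of OHT itself and of MycER cannot be told apart.

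The targeted gene was low in all 4 libraries. RAD21 had 18.1 and 18.6 eRPKM in the mock-treated libraries and 15.8 and 15.5 in the OHT libraries, against 72.2 and 69.3 in mock-treated siCtrl cells. OHT thus left RAD21 slightly lower in both libraries, at -0.22 on the log2 scale (SE 0.05, adjusted p = 0.00425, Benjamini-Hochberg, limma), which is under the fold change threshold. Depths were 11061832 to 12614504 reads in these 4 libraries. ESR1, whose ligand-binding region the fusion borrows, had 0.509 and 0.605 eRPKM in mock-treated and 0.481 and 0.407 in OHT libraries, too low to be tested. The osteosarcoma markers VIM, SPARC, COL1A1, FN1 and CDH2 were well expressed in all 4 libraries (24.0 to 116 eRPKM), while COL1A2, SP7 and BGLAP, the last of them a marker of mature osteoblasts, were under 1 eRPKM. Summed over the 10 osteosarcoma markers the level was 299 to 305 eRPKM in mock-treated and 269 to 278 eRPKM in OHT libraries. Among markers of other cells, KRT8 and KRT18 were also high (63.7 to 73.0 eRPKM), whereas the blood cell markers PTPRC and CD3E stayed under 0.1 eRPKM and CD68, known from macrophages, had 17.4 and 17.9 eRPKM in mock-treated libraries. Of the melanocyte or neural markers TUBB3 had 26.0 and 24.6 eRPKM in mock-treated and 18.6 and 20.2 in OHT libraries. MLANA had 3.8 and 4.0 and 2.9 and 2.9 eRPKM in the same order, and SOX10 no more than 0.235. Summed over the 14 markers of other cells the level was 187 to 192 eRPKM in mock-treated and 176 to 188 eRPKM in OHT libraries. The 2 mock-treated libraries differed by little more than the sampling noise of their reads (chi-square of 1.06 per gene), against 1.98 for the 2 OHT libraries. The p-values use a spread estimated over all 18 libraries.

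OHT changed the expression of 1785 genes in siRAD21 cells at 24 h (11.9% of the genes tested), of which 643 rose (4.29%) and 1142 fell (7.62%). A gene was called differentially expressed (DEG) when its adjusted p was below 0.05 (limma, Benjamini-Hochberg) and its log2 fold change was past 0.5 in either direction. Fold changes were taken on log2(eRPKM + 0.5), which understates them for genes of low expression, and folds printed as such are ratios of mean eRPKM. Most changes were modest: 293 DEGs had a log2 fold change past 1. With no fold change threshold, 5276 genes passed (2540 higher, 2736 lower). The excess of falls depended on the scaling, since quantile normalization gave 814 higher and 860 lower. The libraries of the groups did not overlap for 10901 of the 14993 genes (72.7%), so that a lack of overlap by itself says little. The plot of log2 fold change against p shows the rises reaching further from 0 than the falls.

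**Figure D1:**
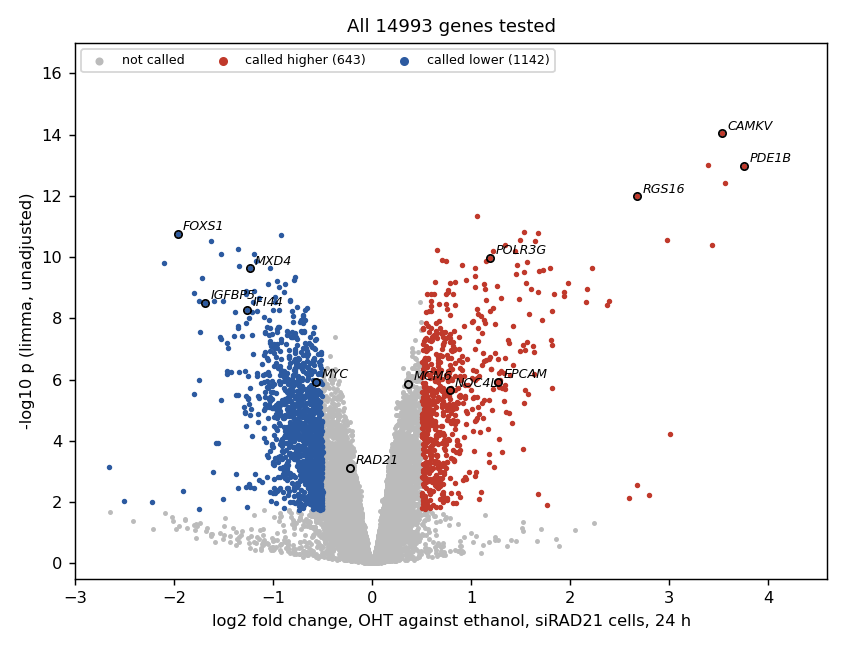
Log2 fold change with OHT in siRAD21 cells at 24 h (x axis) against the unadjusted limma p on a -log10 scale (y axis) for 14993 genes, with the 643 DEGs that rose in red and the 1142 that fell in blue. The furthest fall among the DEGs is RNU5E-1, a small RNA, at -2.66, several rises pass 3, and RAD21 and MCM6 lie among the genes that were not called.

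The 12 largest rises, taken among DEGs with non-overlapping groups and at least 5 eRPKM in 1 group, small RNAs aside, were of genes with no more than 4.27 eRPKM on average in mock-treated siRAD21 cells. The OHT group alone could meet the 5 eRPKM, so the low mock-treated values follow in part from the choice. PDE1B, a calmodulin-dependent phosphodiesterase that breaks down cyclic nucleotides, had 1.07 and 1.15 eRPKM in the mock-treated libraries and 21.3 and 21.4 in the OHT libraries. Both OHT libraries were far above both mock-treated ones, a 19.2-fold difference (log2 fold change 3.76, SE 0.13, adjusted p = 5.33e-10, Benjamini-Hochberg, limma). PDE1B shares 443 exon bases with PPP1R1A, and reads there cannot be told apart because the libraries do not mark the strand. ADCYAP1R1, the receptor of the neuropeptide PACAP, had 0.707 and 0.929 eRPKM in the mock-treated libraries and 14.996 and 15.1 in the OHT libraries. CAMKV, a kinase-like protein of neurons without known kinase activity, had 0.668 and 0.769 eRPKM in the mock-treated libraries and 13.7 and 13.6 in the OHT libraries. The antisense RNA FAM222A-AS1 had 0.374 and 0.365 eRPKM in the mock-treated libraries and 9.81 and 8.02 in the OHT libraries, where the mock-treated values rest on 4 reads at the least. The OHT means of these genes were 18.4, 19.0 and 24.1 times the mock-treated ones. Their log2 fold changes were 3.57, 3.54 and 3.43 (adjusted p = 1.47e-09, 1.38e-10 and 3.88e-08, Benjamini-Hochberg, limma).

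CR2, the complement receptor known from B cells, had 0.682 and 0.874 eRPKM in the mock-treated libraries and 13.6 and 12.2 in the OHT libraries (16.6-fold). MATK, a kinase that restrains Src family kinases, had 0.764 and 0.839 eRPKM in the mock-treated libraries and 9.34 and 10.2 in the OHT libraries (12.2-fold). RGS16, which speeds the shut-off of G proteins, was higher to begin with, at 4.28 and 4.26 eRPKM in the mock-treated libraries and 28.8 and 31.4 in the OHT libraries (7.05-fold). That the groups of these genes do not overlap follows from the rule of choice. G0S2, an inhibitor of the lipase ATGL, had 3.54 and 2.80 eRPKM in the mock-treated libraries and 16.5 and 21.0 in the OHT libraries. SLC27A2, a fatty acid transporter with acyl-CoA synthetase activity, had 0.977 and 0.954 eRPKM in the mock-treated libraries and 6.58 and 7.58 in the OHT libraries. The remaining members were EPHA8, an ephrin receptor, PDZRN3, a ubiquitin ligase, and TNFRSF8, the CD30 antigen, with rises of 5.94-, 5.20- and 4.62-fold. The adjusted p of the 12 genes lay between 1.38e-10 and 5.45e-07 (Benjamini-Hochberg, limma), and each of them was also a DEG in the same direction in siCtrl cells at 24 h.

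The E-box bound by Myc-MAX dimers reads CACGTG, which is the same on both strands. It was searched in promoter windows of RefSeq (GRCh38.p14), from 250 bases before to 50 bases after each annotated start. Of 35116 windows, 2548 held it (7.26%, Wilson 95% interval 6.99 to 7.53). Among the 12 largest rises the windows of FAM222A-AS1, CR2, EPHA8 and TNFRSF8 held it, the last of them at position 14 after the start. Only 11250 of the 14993 genes tested (75.0%) could be matched to a window, under the 80% needed to compare the share between DEGs and other genes, so that check is void and no share is read from DEGs. The stretches around the E-box of the other three genes are shown because they are the largest rises with the sequence before their start, with the E-box in capitals and each read 5′ to 3′ on the strand of the gene:
FAM222A-AS1, chr12:109773649-109773737, minus strand, E-box at -227: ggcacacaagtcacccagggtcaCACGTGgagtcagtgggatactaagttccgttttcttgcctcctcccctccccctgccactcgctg
CR2, chr1:207454223-207454327, plus strand, E-box at -45: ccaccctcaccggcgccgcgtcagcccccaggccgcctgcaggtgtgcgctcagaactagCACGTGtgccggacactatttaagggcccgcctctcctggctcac
EPHA8, chr1:22563280-22563405, plus strand, E-box at -149: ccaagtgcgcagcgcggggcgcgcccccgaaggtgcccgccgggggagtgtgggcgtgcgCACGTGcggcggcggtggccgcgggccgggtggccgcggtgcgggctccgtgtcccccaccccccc
A match describes the letters of the window and was not tested for binding. The window of FAM222A-AS1 holds another CACGTG at position 4 after the start, outside the stretch shown. Among the 12 largest falls 8 had a window and 0 of these held CACGTG, while the windows of MXD4 and SLC43A1, which also fell, held it. These few windows were not compared.

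The 12 largest falls, chosen by the same rule, were 2.90- to 4.31-fold. FOXS1, a forkhead transcription factor, had 19.7 and 20.8 eRPKM in the mock-treated libraries and 4.44 and 5.21 in the OHT libraries, a 4.19-fold lower mean (log2 fold change -1.96, SE 0.10, adjusted p = 2.76e-08, Benjamini-Hochberg, limma). ABCG1, a transporter that moves cholesterol out of cells, had 6.80 and 6.12 eRPKM in the mock-treated libraries and 1.46 and 1.53 in the OHT libraries. CNIH3, an auxiliary subunit of AMPA receptors, had 4.96 and 5.88 eRPKM in the mock-treated libraries and 1.34 and 1.18 in the OHT libraries. In each of them the OHT libraries lay close together. IGFBP5, which binds insulin-like growth factors, had 22.3 and 22.5 eRPKM in the mock-treated libraries and 6.85 and 6.40 in the OHT libraries, and shares 487 exon bases with DIRC3-AS1 that cannot be told apart. SLFN5, of the interferon-inducible Schlafen family, had 15.2 and 15.1 eRPKM in the mock-treated libraries and 4.82 and 4.36 in the OHT libraries. AHNAK2, a giant scaffold protein, was the most abundant of the 12 at 33.9 and 32.9 eRPKM in the mock-treated libraries and 12.6 and 10.4 in the OHT libraries. SLC46A3, CCL24, ABCC3, YPEL2, FBXL7 and CD180 were 3.66-, 3.12-, 3.28-, 3.12-, 3.32- and 3.07-fold lower. All 12 were DEGs in the same direction in siCtrl cells at 24 h. CCL24 had the widest error of them (SE 0.29) and no more than 26 reads in an OHT library.

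All 54 genes of nucleolar ribosome biogenesis had a log2 fold change above 0, against 47.9% of all genes tested, and their median was 0.36 against -0.01 over all genes. With quantile normalization their median was 0.33. Of these 54, 12 rose (22.2%, against 4.29% of all genes) and 0 fell. NOC4L, which acts in small subunit assembly, had 25.8 and 25.5 eRPKM in the mock-treated libraries and 41.5 and 47.7 in the OHT libraries (1.74-fold). RRP12, which takes part in export of the pre-ribosome, had 21.4 and 19.6 eRPKM in the mock-treated libraries and 34.6 and 35.6 in the OHT libraries (1.71-fold). MYBBP1A and NOP16, both nucleolar proteins, rose 1.63- and 1.62-fold. All 4 genes were chosen among DEGs whose groups do not overlap. The adjusted p was 5.17e-05 for NOC4L and 9.51e-06 for RRP12 (Benjamini-Hochberg, limma). NCL, the nucleolar protein nucleolin and a classical Myc target, had 70.3 and 70.4 eRPKM in the mock-treated libraries and 85.8 and 88.6 in the OHT libraries, a log2 fold change of 0.31 that did not reach the threshold. Duplicate removal caps levels at 158.5 to 180.8 eRPKM in these libraries, so changes of abundant genes such as NCL may be understated. With its effect undone 15 of the 54 rose.

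Among 28 subunits of RNA polymerases I and III, which make ribosomal RNA and transfer RNA, 3 rose and 0 fell, with a median of 0.23. The share that rose was 10.7%, against 4.29% of all genes. POLR3G, a subunit of RNA polymerase III typical of undifferentiated cells, stood out with 15.3 and 16.8 eRPKM in the mock-treated libraries and 37.5 and 37.2 in the OHT libraries (2.33-fold, adjusted p = 7.01e-08, Benjamini-Hochberg, limma). POLR3G shares 260 exon bases with MBLAC2. POLR1B and CD3EAP, subunits of RNA polymerase I, had log2 fold changes of 0.53 and 0.51. They came to 0.47 and 0.48 without siRAD21 replicate 2, under the threshold, which left 1 DEG in the list, and CD3EAP to 0.46 without siRAD21 OHT replicate 2.

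Of 77 cytosolic ribosomal proteins, 75 were above 0 and 0 were DEGs, with a median of 0.13 (0.04 with quantile normalization). Of 74 mitochondrial ribosomal proteins all 74 were above 0, with a median of 0.27 (0.21 with quantile normalization). Of these, 4 rose (5.41%, near the 4.29% of all genes): MRPS17, MRPS25, MRPS6 and MRPS26, by 1.54-, 1.52-, 1.49- and 1.42-fold. That count was 10 without siRAD21 OHT replicate 1, and MRPS26 was lost without siRAD21 replicate 2 (0.48) or without siRAD21 OHT replicate 2 (0.45). In the annotation used for overlaps MRPS25 shares 8395 exon bases with NR2C2 and an unnamed transcript, more than the length of 4566 bases recovered from its eRPKM. MRPS17 shares 525 (recovered length 585), MRPS6 405 (recovered length 990) and CD3EAP 1593 with ERCC1, so the values of these genes are uncertain. The 28 genes of mitochondrial import and translation were all above 0 (median 0.32) with 0 DEGs, or 1 without siRAD21 OHT replicate 1. Of 23 genes in the list of aminoacyl-tRNA synthetases and their cofactors 1 rose, the cofactor EEF1E1 (0.55, and 0.49 without siRAD21 OHT replicate 2). Of 36 translation initiation factors EIF3J rose (0.56). The shares that rose were 4.35% and 2.78%, against 4.29% of all genes. Without siRAD21 OHT replicate 1 each of these lists had 2 DEGs, and the initiation factors also without siRAD21 replicate 1. The 20 chaperonins and heat shock genes were all above 0 with a median of 0.22 (0.13 with quantile normalization) and 0 DEGs.

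HK2, the hexokinase that commits glucose to glycolysis, had 10.9 and 10.9 eRPKM in the mock-treated libraries and 25.3 and 24.2 in the OHT libraries, so that both OHT libraries were more than 2 times the mock-treated ones (log2 fold change 1.15, adjusted p = 7.34e-08, Benjamini-Hochberg, limma). PDK1, a kinase that inhibits pyruvate dehydrogenase, had 5.37 and 4.70 eRPKM in the mock-treated libraries and 8.55 and 8.56 in the OHT libraries. These were the 2 DEGs among 23 genes of glycolysis and lactate (8.7%, near the 4.29% of all genes that rose). The median of that list was 0.13, and 0.04 with quantile normalization. DHODH, the mitochondrial enzyme of pyrimidine synthesis, had 8.83 and 9.21 eRPKM in the mock-treated libraries and 16.7 and 17.8 in the OHT libraries (1.91-fold) and was the 1 DEG among 18 genes of pyrimidine and deoxynucleotide synthesis (5.56%, also near it). CAD, which starts that pathway, had 30.5 and 29.4 eRPKM in the mock-treated libraries and 43.2 and 40.8 in the OHT libraries. Its log2 fold change of 0.48 lay just under the threshold and passed it after centring (0.52). All 19 genes of purine synthesis were above 0 (median 0.22) and 2 rose (10.5%, against 4.29% of all genes). These were PFAS (0.55) and IMPDH1 (0.55, and 0.50, under the threshold, without siRAD21 OHT replicate 2).

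ODC1, the Myc-responsive enzyme that starts polyamine synthesis, had 84.6 and 81.9 eRPKM in the mock-treated libraries and 102 and 106 in the OHT libraries. Its groups did not overlap, but the log2 fold change of 0.32 stayed under the threshold. At this level duplicate removal may understate it. Of 12 genes of polyamine metabolism PAOX fell (-0.81), a call lost without siRAD21 replicate 1 or without siRAD21 OHT replicate 1. Of 16 amino acid transport and glutamine genes SLC43A1, a transporter of branched-chain amino acids, fell from 8.002 and 8.05 to 4.99 and 5.04 eRPKM. Of 24 genes of cholesterol synthesis and uptake DHCR7, the enzyme of the last step of cholesterol synthesis, rose from 33.3 and 32.2 to 53.3 and 54.1 eRPKM (1.64-fold) and 22 were above 0. PAOX made up 8.33% of its list and SLC43A1 6.25%, near the 7.62% of all genes that fell. DHCR7 made up 4.17%, near the 4.29% that rose.

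Of 29 genes of replication licensing and firing 26 were above 0, with a median of 0.12 (0.05 with quantile normalization), and 0 were DEGs. MCM6, of the replicative helicase, was the furthest of the MCM subunits with 28.3 and 28.4 eRPKM in the mock-treated libraries and 36.0 and 37.4 in the OHT libraries. This is a log2 fold change of 0.36 with a small error (0.05, adjusted p = 3.63e-05, Benjamini-Hochberg, limma), under the fold change threshold. MCM2, MCM3, MCM4 and MCM7 had 0.17, 0.20, 0.22 and 0.11. MCM5 had 44.2 and 43.7 eRPKM in the mock-treated libraries and 41.8 and 46.0 in the OHT libraries, with overlapping groups and a log2 fold change near 0 that turned positive after centring (0.04) and without siRAD21 replicate 1 (0.0040) or siRAD21 OHT replicate 1 (0.06). Among 25 genes of replicative polymerases and the clamp, POLD4, a small subunit of DNA polymerase delta, fell from 28.9 and 27.9 to 13.1 and 16.5 eRPKM (-0.93) and 0 rose. The share that fell was 4.0%, against 7.62% of all genes.

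The list of replication stress and DNA damage response held 3 DEGs among 42 genes, all of which rose, a share of 7.14% that lies near the 4.29% of all genes. CHEK2, a checkpoint kinase of the response to double-strand breaks, had 20.1 and 20.8 eRPKM in the mock-treated libraries and 29.6 and 33.0 in the OHT libraries (1.53-fold, adjusted p = 2.01e-06, Benjamini-Hochberg, limma). TIPIN, which protects stalled replication forks with TIMELESS, had 30.8 and 29.3 eRPKM in the mock-treated libraries and 43.5 and 45.9 in the OHT libraries. PALB2, which brings BRCA2 to breaks, had 15.6 and 17.2 eRPKM in the mock-treated libraries and 24.8 and 24.0 in the OHT libraries, and its log2 fold change went from 0.56 to 0.49, under the threshold, without siRAD21 replicate 1. The median of the list was 0.06, and 25 of its 42 genes were above 0. CHEK2 and TIPIN share 293 and 579 exon bases with HSCB and a pseudogene.

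The 22 G1/S regulators and the 42 G2/M and mitosis genes held 0 DEGs, with medians of 0.12 and 0.02. With quantile normalization the medians were 0.065 and -0.079. CDK4, which drives G1, had 60.4 and 60.2 eRPKM in the mock-treated libraries and 65.99 and 70.3 in the OHT libraries, and shares 1369 exon bases with TSPAN31. Among 7 CDK inhibitors tested 2 fell: CDKN2B, which inhibits CDK4 and CDK6, by 0.58 on the log2 scale, and CDKN2D from 12.04 and 9.97 to 7.37 and 6.99 eRPKM. CDKN2D had -0.58 but -0.45 (adjusted p = 0.0756, Benjamini-Hochberg, limma) without siRAD21 replicate 1. The p53 targets CDKN1A and MDM2 had 87.1 and 85.3 against 87.0 and 90.7 and 35.3 and 35.7 against 35.2 and 32.8 eRPKM, and neither passed the test (adjusted p = 0.567 and 0.224, Benjamini-Hochberg, limma). Of 29 p53 targets TP53INP1, a stress protein of autophagy, was the 1 DEG and fell from 14.6 and 14.8 to 7.18 and 6.64 eRPKM. Of 16 BCL2 family members BMF, a BH3-only protein that promotes apoptosis, fell (-1.74). The share that fell was 28.6% of the CDK inhibitors, 3.45% of p53 targets and 6.25% of the BCL2 family, against 7.62% of all genes. Of 17 genes of cohesin, its loaders and CTCF 0 were DEGs, with a median of -0.07.

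Of 11 genes of the MYC, MAX and MXD network 7 were above 0, 2 fell and 0 rose, with a median of 0.13. MYC had 44.8 and 44.6 eRPKM in the mock-treated libraries and 29.4 and 30.6 in the OHT libraries, 1.49-fold lower (adjusted p = 3.25e-05, Benjamini-Hochberg, limma). The MYC value may hold reads of the MycER transcript, since reads on exons cannot separate them. MXD4, a repressor that competes with Myc for MAX, had 17.8 and 17.5 eRPKM in the mock-treated libraries and 6.99 and 7.44 in the OHT libraries, 2.45-fold lower, with the groups well apart. MAX had 30.01 and 28.8 against 34.5 and 37.3 eRPKM (log2 fold change 0.28), and shares 1006 exon bases with FNTB and other transcripts. MYC and MXD4 were the 2 DEGs (18.2% of the list, against 7.62% of all genes that fell).

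Of 29 collagens and fibrillar matrix genes 11 fell and 0 rose, which is 37.9% against the 7.62% of all genes that fell. Of the 29, 27 were below 0, with a median of -0.43. COL8A1, a network-forming collagen, had 16.9 and 17.4 eRPKM in the mock-treated libraries and 10.1 and 8.99 in the OHT libraries. COL5A2, a regulator of fibril diameter, had 17.6 and 17.8 eRPKM in the mock-treated libraries and 10.2 and 9.73 in the OHT libraries. LOXL4, which crosslinks collagen, had 56.3 and 55.0 eRPKM in the mock-treated libraries and 30.4 and 31.6 in the OHT libraries. In these genes the groups were far apart (1.79-, 1.77- and 1.79-fold lower). COL5A1 had 12.9 and 12.8 eRPKM in the mock-treated libraries and 5.18 and 5.14 in the OHT libraries (-1.24). Its error over all libraries was wide (0.34), and its adjusted p of 0.0111 became 0.0535 without siRAD21 replicate 1, 0.0539 without siRAD21 replicate 2 and 0.0545 without siRAD21 OHT replicate 2 (Benjamini-Hochberg, limma). FN1, fibronectin, fell from 34.8 and 35.8 to 24.8 and 24.0 eRPKM and was just under the threshold after centring (-0.49).

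Of 23 integrins and laminins 6 fell (26.1%, against 7.62% of all genes) and 0 rose. LAMB3, a laminin chain, went from 42.5 and 41.6 to 27.9 and 29.2 eRPKM. ITGA7, a laminin receptor, went from 10.7 and 11.1 to 7.22 and 6.29 eRPKM. LAMA5 (-0.56) was not a DEG without siRAD21 replicate 2 (adjusted p = 0.0691) or without siRAD21 OHT replicate 2 (adjusted p = 0.0866, Benjamini-Hochberg, limma). Of 27 genes of the TGF-beta and BMP response 5 fell (18.5%, against 7.62% of all genes) and 2 rose (7.41%, against 4.29%). TGFBI, a matrix protein induced by TGF-beta, had 26.8 and 26.1 eRPKM in the mock-treated libraries and 12.7 and 14.4 in the OHT libraries, and LTBP2, a matrix protein related to the TGF-beta binding proteins, had 28.6 and 28.8 eRPKM in the mock-treated libraries and 15.8 and 14.0 in the OHT libraries. The 2 that rose were BMP6, a ligand, from 2.93 and 3.50 to 8.12 and 7.05 eRPKM, and BAMBI, a decoy receptor, from 10.6 and 10.8 to 21.0 and 23.6 eRPKM. CTGF, counted both there and among 17 YAP/TAZ targets, was the 1 DEG of the latter (5.88%) and fell from 41.4 and 38.2 to 26.0 and 26.6 eRPKM. All 8 genes of the IGF axis tested were below 0, and IGFBP5 and IGFBP7 fell, the latter with 17.2 and 15.3 eRPKM in the mock-treated libraries and 7.18 and 8.65 in the OHT libraries. IGFBP7 overlaps IGFBP7-AS1 and POLR2B by 354 exon bases.

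Of 20 interferon-stimulated genes 9 fell (45.0%, against 7.62% of all genes) and 0 rose, and 19 were below 0 with a median of -0.45. With quantile normalization 6 fell, and without 1 library at a time 6 to 8. IFI44 had 8.20 and 7.75 eRPKM in the mock-treated libraries and 3.06 and 3.01 in the OHT libraries (2.63-fold lower, adjusted p = 7.34e-07, Benjamini-Hochberg, limma). IFIT3, a partner of the RNA-binding IFIT1, had 9.58 and 9.23 eRPKM in the mock-treated libraries and 5.73 and 5.85 in the OHT libraries. STAT2, the transcription factor of the type I interferon response, had 27.6 and 27.4 eRPKM in the mock-treated libraries and 19.1 and 18.3 in the OHT libraries. DDX58, the RNA sensor RIG-I, had 7.43 and 7.71 eRPKM in the mock-treated libraries and 5.25 and 4.22 in the OHT libraries, where 4471 exon bases are shared with another transcript, and its log2 fold change of -0.63 became -0.49 without siRAD21 OHT replicate 2. The other five that fell were IFIT2, OASL, OAS1, IFIH1 and OAS3, by 0.52 to 1.00 on the log2 scale.

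Of 27 lysosome and autophagy genes 21 were below 0 and WIPI1, an early autophagy protein, fell from 18.5 and 17.7 to 9.83 and 11.5 eRPKM. The share that fell was 3.7%, against 7.62% of all genes. WIPI1 shares 956 exon bases with ARSG and an unnamed transcript. Of 16 genes of the circadian clock, ARNTL, the activator BMAL1, fell from 11.01 and 12.03 to 6.48 and 6.30 eRPKM, while NR1D1, which represses ARNTL, rose from 6.995 and 6.97 to 12.1 and 12.1 eRPKM. BHLHE41, another repressor of the clock, rose (0.53), but had 0.47 without siRAD21 replicate 1. Without siRAD21 OHT replicate 1, 2 genes of this list fell. NR1D1 shares 473 exon bases with THRA. Of the clock list 12.5% rose and 6.25% fell, against 4.29% and 7.62% of all genes. Of 19 genes of ATF4 and the unfolded protein response TRIB3 (0.53) and ATF3 (0.71) rose (10.5%, against 4.29% of all genes). TRIB3 was under the threshold without siRAD21 replicate 2 or siRAD21 OHT replicate 2 (0.50 and 0.48), and ATF3 did not pass with any 1 of the 4 libraries left out (adjusted p = 0.0618 to 0.0980, Benjamini-Hochberg, limma). Among the markers of other cells EPCAM, an epithelial adhesion molecule, rose from 3.92 and 3.32 to 9.86 and 9.05 eRPKM and CD68 fell from 17.4 and 17.9 to 10.8 and 11.2 eRPKM. Each made up 14.3% of the 7 tested, against 4.29% of all genes that rose and 7.62% that fell. In the annotation used for overlaps 1852 exon bases of CD68 are shared with other transcripts, and reads there cannot be told apart. The length recovered from the eRPKM of CD68 was 1856 bases, which need not be the same bases. Of the osteosarcoma markers RUNX2 fell from 4.56 and 4.61 to 2.91 and 2.74 eRPKM, beside FN1 (28.6% of the 7 tested, against 7.62% of all genes). The part of other cell types in these values was not tested.

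**Figure D2:**
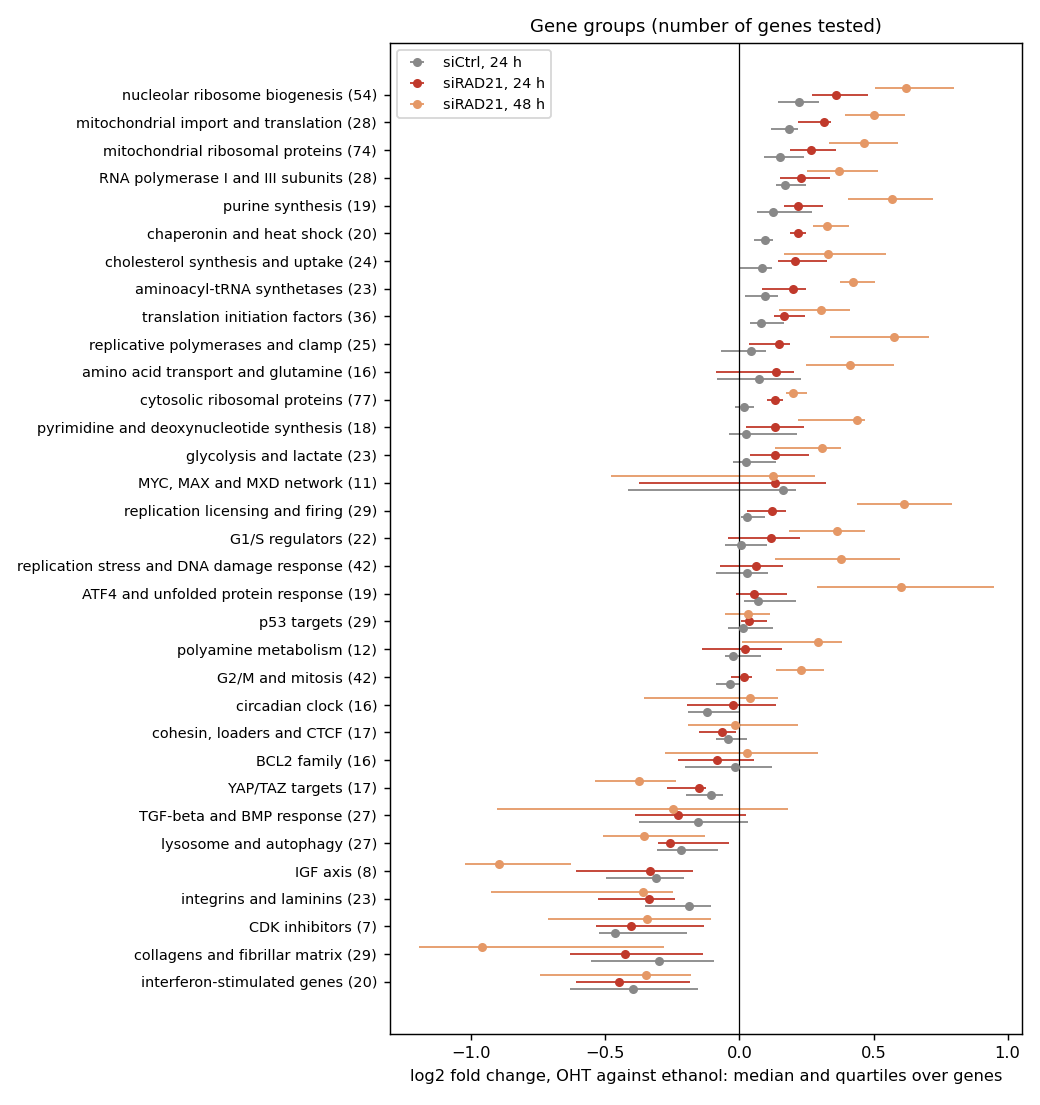
Median and quartiles of the log2 fold change with OHT over the genes of each list, in siCtrl cells at 24 h (grey), siRAD21 cells at 24 h (red) and siRAD21 cells at 48 h (orange). In siRAD21 cells at 24 h the medians run from -0.45 for interferon-stimulated genes to 0.36 for nucleolar ribosome biogenesis, and replication licensing and firing goes from 0.12 at 24 h to 0.61 at 48 h.

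The same comparison in siCtrl cells at 24 h, which shares no library with the one above, gave 1316 DEGs (8.78%), 551 higher (3.68%) and 765 lower (5.1%). Of the 643 genes that rose in siRAD21 cells 413 rose in siCtrl cells, which is 64.2% of the former and 75.0% of the 551. Of the 1142 that fell 600 fell in siCtrl cells, 52.5% of the former and 78.4% of the 765. 1 gene that rose in siRAD21 cells fell in siCtrl cells, and 0 the other way. The median log2 fold change of the 643 was 0.71 in siRAD21 cells and 0.61 in siCtrl cells, and that of the 1142 was -0.69 and -0.52. These genes were picked by their siRAD21 values, so the first of each pair is made larger by the choice, and over the 551 and 765 picked by their siCtrl values the medians were 0.71 in both and -0.70 in siRAD21 against -0.66 in siCtrl cells. Across all 14993 genes, which are not independent of each other, the log2 fold changes of the pair of comparisons had a Pearson r of 0.73, given as a description. The mock-treated libraries of siRAD21 cells also lay closer to each other than those of siCtrl cells (chi-square per gene of 1.06 against 2.49), and with the former averaged to 1 sample 1570 genes passed. The part of this spread in the numbers of DEGs was not tested.

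No gene was called different between siRAD21 and siCtrl cells in its response to OHT at 24 h. The siRNA by OHT interaction had 0 DEGs among 14993 genes, with 906 (6.04%) at an unadjusted p below 0.05 and a smallest adjusted p of 0.107 (Benjamini-Hochberg, limma). Weights from voom on reads recovered from the eRPKM gave 19 DEGs (3 higher, 16 lower), quantile normalization gave 12, and a replicate block with the numbers of both OHT groups crossed gave 18 (3 higher, 15 lower). The genes of smallest p, named after their values were seen, were TGFBI, SCEL, DRD1, MFSD2A, SLC12A8 and MGLL, with interactions in both directions. TGFBI had 42.3 and 38.0 eRPKM in mock-treated and 30.1 and 32.0 in OHT siCtrl cells (-0.36 against -0.94 in siRAD21 cells). COL8A1 was named from the collagen list and not by its interaction p. It had 7.79 and 8.40 and 7.92 and 7.42 eRPKM in siCtrl cells, overlapping groups, against a fall of 1.79 times in siRAD21 cells. The interaction was -0.74 for COL8A1 (unadjusted p = 0.000105) and -0.58 for TGFBI (unadjusted p = 2.08e-05), both with an adjusted p of 0.107 (Benjamini-Hochberg, limma). DRD1, a dopamine receptor, had 7.15 and 7.81 eRPKM in mock-treated and 2.31 and 2.27 in OHT siCtrl cells, and 0.265 and 0.235 and 0.280 and 0.322 eRPKM in siRAD21 cells, where it was near 0 with either treatment. SCEL, MFSD2A, SLC12A8 and MGLL had interactions of -1.04, 0.68, -0.73 and -0.51, with the same adjusted p of 0.107 (Benjamini-Hochberg, limma).

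The lists in siCtrl cells can be set beside those in siRAD21 cells. Nucleolar ribosome biogenesis had a median of 0.22 with 2 DEGs (3.7%) in siCtrl cells, against 0.36 with 12 (22.2%) in siRAD21 cells. Of all genes 3.68% rose in siCtrl and 4.29% in siRAD21 cells. Collagens and fibrillar matrix had -0.30 with 8 DEGs (27.6%) against -0.43 with 11 (37.9%). Interferon-stimulated genes had -0.40 with 7 (35.0%) against -0.45 with 9 (45.0%). Of all genes 5.1% fell in siCtrl and 7.62% in siRAD21 cells. Cytosolic ribosomal proteins had 0.02 against 0.13, with 0 DEGs in both, and the latter was 0.04 with quantile normalization and 0.08 to 0.19 without 1 library at a time. Their median interaction was 0.12 and ran from 0.04 to 0.19 without 1 library. The median interaction over the nucleolar list was 0.16, with 51 of 54 genes above 0, and without 1 library at a time it ran from 0.11 to 0.19. Over all genes it was 0.0045. Other lists leaned the same way, with 76 of 77 cytosolic ribosomal proteins, 35 of 36 translation initiation factors and 19 of 19 purine synthesis genes above 0. Of the collagens and fibrillar matrix 10 of 29 were above 0, and of the interferon-stimulated genes 12 of 20. A shift over many lists is thus not particular to the nucleolar one. None of these list differences was given a test.

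Levels in siCtrl cells put these changes in context, though the values that follow share the mock-treated siRAD21 libraries with the comparison above and are given side by side only. Silencing of RAD21 alone changed 8.43% of genes at 24 h, 874 higher (5.83%) and 390 lower (2.6%). COL8A1 had 7.79 and 8.40 eRPKM in mock-treated siCtrl cells, 16.9 and 17.4 in mock-treated siRAD21 cells and 10.1 and 8.99 in siRAD21 OHT cells. The nucleolar list had a median of -0.20 with silencing alone, with all 54 genes below 0. In the same order of groups YPEL2 had 5.20 and 6.07, 11.5 and 12.1 and 3.97 and 3.58 eRPKM. SLFN5 had 6.003 and 5.98, 15.2 and 15.1 and 4.82 and 4.36 eRPKM. With OHT both were below their level in mock-treated siCtrl cells. In siCtrl OHT cells they were lower still, at 2.75 and 2.45 and at 2.87 and 2.25 eRPKM. TP53INP1 had 3.82 and 5.08, 14.6 and 14.8 and 7.18 and 6.64 eRPKM, and stayed above its mock-treated siCtrl level. NOC4L had 34.9 and 29.6, 25.8 and 25.5 and 41.5 and 47.7 eRPKM. The siRAD21 OHT libraries were the highest of these, but siCtrl OHT cells had 45.8 and 51.5 eRPKM. MYC had 55.2 and 51.7, 44.8 and 44.6 and 29.4 and 30.6 eRPKM, each lower than the one before in this order of groups. In siCtrl OHT cells MYC had 41.0 and 41.2 eRPKM, below mock-treated siRAD21 cells.

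**Figure D3:**
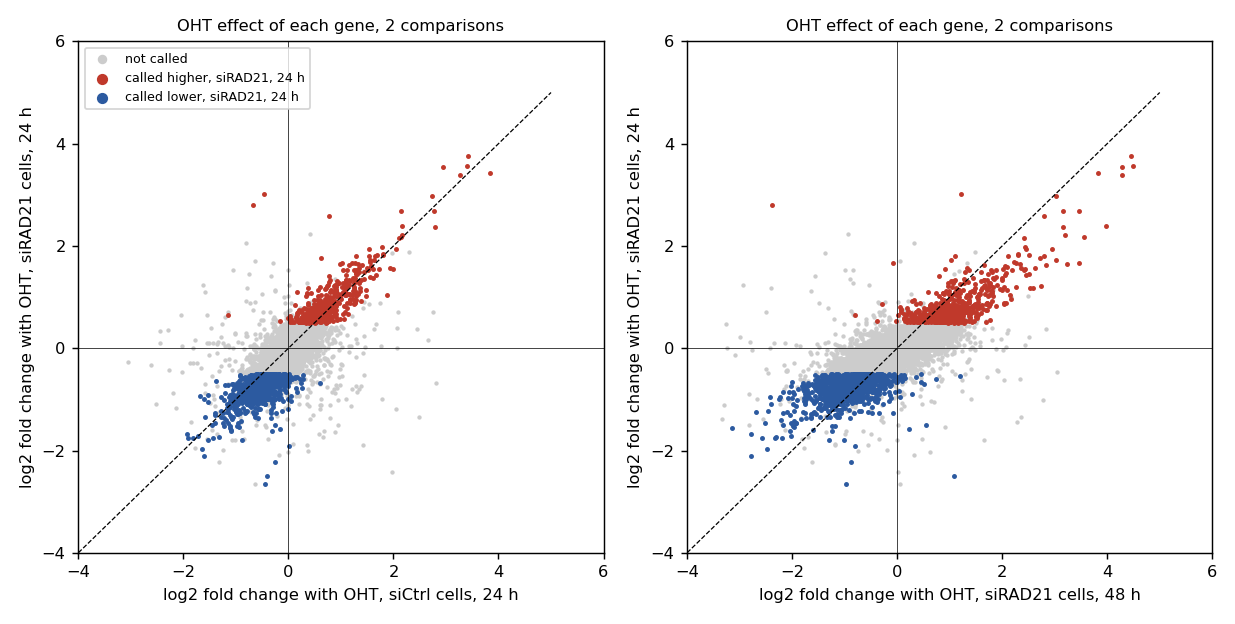
Log2 fold change with OHT of 14993 genes in siRAD21 cells at 24 h (y axis) against siCtrl cells at 24 h (left) and siRAD21 cells at 48 h (right), comparisons that share no library with the one on the y axis. DEGs of siRAD21 cells at 24 h are red (higher) or blue (lower) and the dashed line marks equal values, near which the genes lie on the left (Pearson r 0.73), while on the right (r 0.76) most DEGs lie further from 0 at 48 h.

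At 48 h OHT changed 4281 genes in siRAD21 cells (28.6%), 1853 higher (12.4%) and 2428 lower (16.2%), in libraries not used at 24 h. The 2 siRAD21 OHT libraries at 48 h differed by less than the sampling noise of their reads (chi-square of 0.98 per gene), and counted as 1 sample they gave 1803 higher and 2269 lower. Of the 643 genes that rose at 24 h 573 rose at 48 h (89.1% of the former, 30.9% of the latter), and of the 1142 that fell 952 fell (83.4% and 39.2%). Their medians went from 0.71 to 1.01 and from -0.69 to -0.88. The difference between the times was itself past the thresholds for 875 genes (5.84%), 518 higher (3.45%) and 357 lower (2.38%) at 48 h, and for 616 with the pair counted as 1 sample. The 357 came to 203 and 209 without siRAD21 24 h replicate 1 or 2, to 189 without siRAD21 48 h replicate 1, to 208 without siRAD21 OHT 24 h replicate 1 and to 224 without siRAD21 OHT 48 h replicate 1.

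Replication genes were among those that differed between the times. Of 29 genes of replication licensing and firing 17 rose at 48 h (58.6%, against 12.4% of all genes) and 0 at 24 h (against 4.29%). For 14 of the 29 (48.3%, against 3.45% of all genes) the difference was past the thresholds. MCM6 had 14.9 and 14.7 eRPKM with ethanol and 34.1 and 34.0 with OHT at 48 h, against 28.3 and 28.4 and 36.0 and 37.4 at 24 h. The OHT libraries were thus close at both times and the mock-treated libraries were lower at 48 h (difference of the log2 fold changes 0.81, adjusted p = 9.26e-06, Benjamini-Hochberg, limma). MCM2 and MCM4 had the same form, from 60.2 and 60.9 and 52.1 and 51.9 eRPKM with ethanol at 24 h to 33.3 and 34.5 and 32.5 and 33.6 at 48 h, and from 66.4 and 69.6 and 59.9 and 61.7 to 58.5 and 59.8 and 58.6 and 57.2 with OHT. CHEK2, TIPIN and PALB2, the DEGs of the damage response at 24 h, had 14.4 and 15.03, 15.3 and 17.9 and 11.6 and 11.1 eRPKM with ethanol at 48 h and 34.7 and 35.4, 44.4 and 43.8 and 25.9 and 26.2 with OHT. Of the 42 genes of that list 16 rose at 48 h (38.1%, against 12.4% of all genes). Nucleolar ribosome biogenesis had 12 DEGs of 54 at 24 h and 41 at 48 h, collagens and fibrillar matrix 11 of 29 and 20, and interferon-stimulated genes 9 of 20 and 6. The difference between the times was past the thresholds for 3 of the 54 (5.56%, higher), 6 of the 29 (20.7%, lower) and 0 of the 20. Of all genes 3.45% were higher and 2.38% lower. For most members of these lists a difference was thus not shown.

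Genes raised or lowered by OHT in siCtrl cells at 48 h, in libraries that no comparison above uses, give a further reading of the 24 h response. That comparison had 2684 DEGs (17.9%), 1166 higher (7.78%) and 1518 lower (10.1%). Of the 1166 that rose there 534 rose in siRAD21 cells at 24 h (45.8%) and 13 fell, and of the 1518 that fell there 731 fell (48.2%) and 4 rose. The 13 came to 7 without siRAD21 replicate 2, and the 4 to 2 without siRAD21 replicate 1. Against these stand 4.29% and 7.62% of all genes. The study divided its own genes of that comparison by Myc binding at their promoter, a list drawn from this experiment and so no independent evidence of direction. Of its raised genes 336 of 707 bound (47.5%) and 194 of 465 unbound (41.7%) rose in siRAD21 cells at 24 h, with medians of 0.48 and 0.42. Of its lowered genes 150 of 332 bound (45.2%) and 543 of 1020 unbound (53.2%) fell, with medians of -0.45 and -0.53. No test was made between bound and unbound genes.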

How the data were processed

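RNA was measured in 18 libraries of U2OS-MycER cells. Per the methods of the study, ribosomal RNA was removed, libraries were made with a kit that does not mark the strand, reads were aligned to hg19 with TopHat2 (2.0.8), duplicates were removed, and exon reads were counted with featureCounts (1.4.5). The authors deposited eRPKM, an RPKM over exons, and used DESeq2 for their own tests, whose values were not used here beyond the lists of genes the study split by Myc binding. Duplicate removal caps the level that a gene can reach. The labels' groups were used as given. Members and gene lists were chosen with earlier results of these data known.

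Log2(eRPKM + 0.5) of genes with a mean of at least 1 eRPKM was fitted in limma (3.58.1, R 4.3.3) with 8 group means over 18 libraries, a variance trend and Benjamini-Hochberg adjustment. Named genes were the 12 largest rises and falls among 1179 DEGs with non-overlapping groups, at least 5 eRPKM in 1 group and no small RNA, up to 4 such DEGs per list, up to 5 per direction for the difference between 48 h and 24 h, and a set of fixed genes. Others are named where their count is small. Whole reads were recovered from the eRPKM of all 22040 genes above 0 (within 0.004 reads), with depths of 9647501 to 12678599 reads per library, and voom on these reads, which called 2080 genes in siRAD21 cells at 24 h, was an alternative. The 1 read step sets the precision of low values. Pseudocount, filter, scaling, groups fitted, replicate block, thresholds and single libraries were varied. The fit was tested on simulated data. Promoter sequences came from RefSeq (GRCh38.p14), which is not the build of the files, so no other coordinates are given. Overlaps were taken from a GENCODE annotation lifted to hg19, which is not the one behind the eRPKM, so shared bases can exceed the length counted. Of the 114 named genes 60 share exon bases with another gene of that annotation, and not every overlap is given beside its gene.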

Additional observations from a re-analysis of the deposited data

Results flagged for a closer look

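The response of siRAD21 cells to OHT differed between 48 h and 24 h for 875 genes by the test of the difference itself (limma with Benjamini-Hochberg adjustment, adjusted p below 0.05 and a difference past 0.5 on the log2 scale). No group of these comparisons has the 4 libraries needed to look for a library that stands apart. Among the genes of replication and the damage response the differences of the log2 fold changes were 0.63 for MCM2, 0.58 for MCM4, 0.81 for MCM6, 0.63 for CHEK2, 0.82 for TIPIN and 0.61 for PALB2.

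Other coding genes differed by more. CHAC1, an enzyme that degrades glutathione and a target of ATF4, had a difference of 2.06, with 34.2 and 31.5 eRPKM in mock-treated and 31.8 and 34.8 in OHT cells at 24 h and 6.34 and 7.35 and 29.7 and 31.1 at 48 h. CXCL14, a chemokine, had 1.78, with 6.998 and 7.23 and 22.7 and 25.02 eRPKM at 24 h and 1.25 and 0.944 and 16.9 and 16.98 at 48 h. LRRN1, a membrane protein with leucine-rich repeats, had -1.47, with 24.0 and 24.0 and 12.6 and 11.6 eRPKM at 24 h and 45.5 and 43.5 and 8.13 and 7.57 at 48 h. INSL4 had 2.38, HIST1H2BA 2.29, FAM166A 1.80, IGFL4 -2.10 and ZFHX3 -1.34. CCL24 had -1.60, but 1 of its OHT libraries at 48 h was at 0 and the difference no longer passed without siRAD21 OHT 48 h replicate 1, among others.

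MicroRNA genes rested on few reads in these libraries. MIR548AN had -5.18, MIR554 -3.20, MIR2053 -2.96 and MIR630 -2.42, with at most 8 reads in a library at 24 h, and the calls of all 4 were lost when single libraries were left out. MIR3193 had 1.86, with a call that held under every alternative tried for it, and MIR614 had 1.81, a call lost without siRAD21 OHT 48 h replicate 1 and with voom. All 97 bases of MIR630 lie in exons of ARIH1 and all 90 of MIR614 in exons of GPRC5A, so their reads cannot be told apart from those of the host genes. LOC100505716, a longer transcript of 2110 bases, had -1.53, a call lost without replicate 1 of any of the 4 groups compared.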

How the results depend on the processing

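The number of DEGs in siRAD21 cells at 24 h was 1024 with a mean of at least 5 eRPKM, 5276 with no fold change threshold and 293 with a log2 threshold of 1, and in siCtrl cells 742, 3975 and 224. The difference between 48 h and 24 h had 1979 and 122 under those 2 thresholds. The interaction of siRNA and OHT had 5 DEGs with all genes above 0, 12 with quantile normalization, 4 with the replicate number as a block, 18 with that block and the numbers of both OHT groups crossed, and 19 with voom on recovered reads. Leaving out 1 library at a time gave 1555 to 1806 DEGs in siRAD21 cells, 1115 to 1236 in siCtrl cells, 595 to 858 for the difference between the times and 0 to 0 for the interaction. CDKN1A turned to -0.0643 with quantile normalization and -0.0001 with the effect of duplicate removal undone, and MCM5 to 0.0356 after centring, and without 1 library it ran from -0.0719 (siRAD21 OHT replicate 2 left out) to 0.0634 (siRAD21 OHT replicate 1 left out). The causes were not tested. Of the 79 named genes that were DEGs, 14 lost their call in at least 1 of 19 alternatives, and the filter at 5 eRPKM left 71 of them tested.

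Replicate numbers were shared between groups, and the labels do not say what a number marks. Same-numbered siRAD21 and siRAD21 OHT libraries deviated in opposite directions (r = -0.20). At 24 h all 4 pairs of groups across treatment had a negative r (-0.43 to -0.13), and the pairs within a treatment 0.28 and 0.31. With the number as a block 1815 genes passed in siRAD21 cells (649 higher, 1166 lower), 1324 in siCtrl cells and 1007 for the difference between the times. With the numbers of siRAD21 OHT crossed 1825 passed (652 higher, 1173 lower), and with those of both OHT groups crossed 1835 in siRAD21 and 1349 in siCtrl cells. Alternatives chosen after seeing the data were the crossed numbers, voom (2080 DEGs), the effect of duplicate removal undone (1940) and the averaged siRAD21 libraries (1570).

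With 2 libraries per group the spread is borrowed from all groups. Genes of few reads, small RNAs above all, cannot be read at this depth.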
